A study of Mus musculus with 6 samples.

Results

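The mRNAs of 9 genes that sense double-stranded RNA, edit it, or carry out necroptosis were examined in B16F10 cells, a mouse melanoma line, after depletion of OSGEP. The 9 genes were chosen by name, as the rows of the count table for Eif2ak2, Adar, Adarb1, Prkra, Zbp1, Ripk1, Ripk3, Mlkl and G3bp1. All 9 were found among the 55487 genes listed, and 7 of them had enough counts to be tested. OSGEP carries the enzymatic activity of KEOPS, which makes the t6A modification of tRNAs. Control cells (shCtr, labelled WT, n = 3 libraries) carried a scramble shRNA, and depleted cells (shOSGEP, labelled KD OSGEP, n = 3) carried hairpin OSGEP#2. Both were delivered by lentivirus with puromycin selection. Each library came from a separate infection, so the p-values measure the spread between infections of 1 line with 1 hairpin.

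These genes form a connected circuit. PKR, encoded by Eif2ak2, binds double-stranded RNA and phosphorylates eIF2α, which slows translation and can lead to stress granules built on G3BP1. ADAR enzymes convert adenosine to inosine in double-stranded RNA, which restrains PKR and other sensors. ZBP1 binds left-handed nucleic acids and recruits RIPK3, which phosphorylates MLKL, and MLKL then breaches the plasma membrane in necroptosis, a lytic form of cell death.

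Depth ranged from 18915587 to 29487384 counts per library. Osgep, the targeted gene, was at 20.6, 58.6 and 21.8 CPM (counts relative to the TMM-scaled library size) in the shCtr libraries, against 4.28, 0.542 and 5.52 CPM under shOSGEP, in order of replicate number. Every library thus lay on the side of its label, with a Log2FC (shOSGEP over shCtr) of -3.29 (SE 0.876), although the adjusted p in edgeR was 1.00. Melanocyte markers were present throughout, with 17040 to 29600 CPM summed over 7 genes in shCtr. The sum was 18080, 3551 and 15390 CPM in shOSGEP. Of 8 leukocyte markers, Ptprc, Cd3e, Itgam and Ncr1 had no count in any library. Cd68 (0.504 to 7.47 CPM) and Lyz2 (1.485 to 3.14 CPM) had counts in every library. Csf1r had 13 counts in shOSGEP replicate 2 and 0 elsewhere. The 8 together summed to 4.15 to 9.29 CPM. The 6 fibroblast and endothelial markers summed to 0.639 to 4.42 CPM, and the 4 keratinocyte markers to at most 0.0492 CPM.

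None of the 7 genes tested passed a test of the difference between shOSGEP and shCtr. At an adjusted p under 0.05 in edgeR, 0 of the 7 were called, as were 0% of all 12669 genes tested. DESeq2 called 14 genes of the table and limma-voom with sample quality weights 3, none of them among the 7. By the cut-off that the study's methods give, a Log2FC beyond 0.5 either way with an unadjusted p under 0.05, 0 of the 7 passed, against 2.02% of all genes tested. The number of genes with an unadjusted p under 0.05, whatever the Log2FC, was 256 across the table and 0 among the 7. For all 7 the values of the groups overlapped, whereas 6.36% of all genes tested had groups that did not overlap. The Log2FC lay between -0.38 and 0.59, and each adjusted p in edgeR was 1.00. DESeq2 gave an adjusted p of 1.00 for each of the 7 as well.

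**Figure D1:**
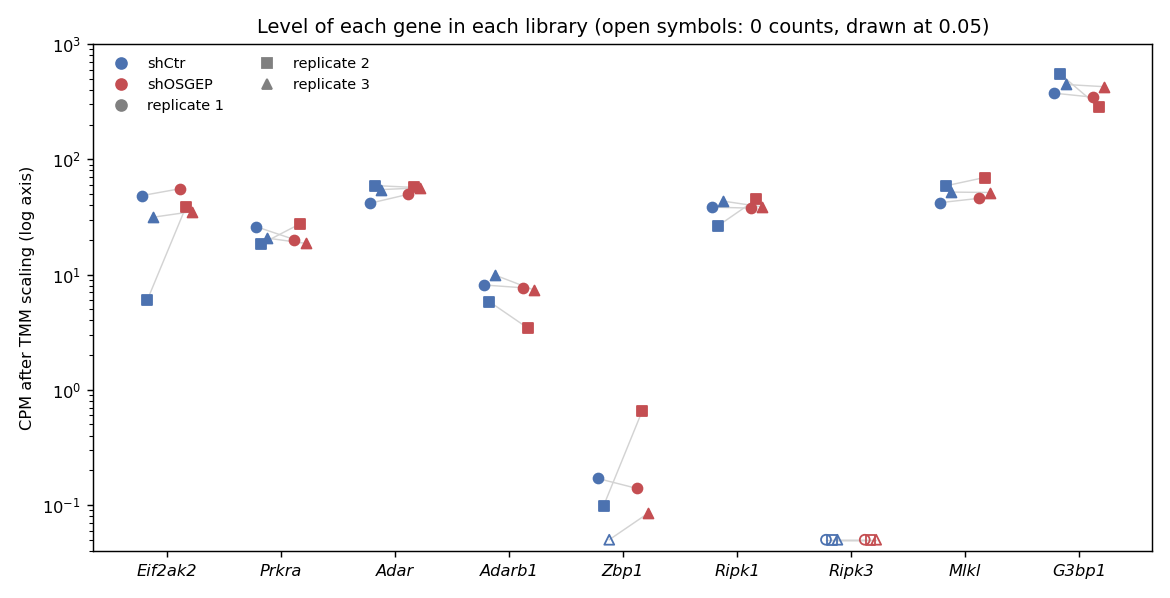
CPM after TMM scaling (log axis) of the 9 genes in each of the 6 libraries, with shCtr in blue, shOSGEP in red, a symbol for each replicate number and lines joining equal numbers. Eif2ak2 was at 5.997 CPM in shCtr replicate 2 and at 31.4 to 55.5 CPM in the other 5 libraries, while Ripk3 had 0 counts in every library (open symbols drawn at 0.05).

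The windows around annotated start sites were searched for the core of the interferon-stimulated response element, to show where such letters stand in these genes. The search was for GAAA, any 2 bases, then GAAA, on both strands, in RefSeq windows of GRCm38.p6 from 250 bases before to 50 bases after each start. A match was found in 2 of the 11 windows of the 8 genes with an entry, and in 3.44% of all 32851 windows. The 30 bases around each match are given 5′ to 3′ on the gene's strand, with the match in capitals. The Eif2ak2 stretch is chr17:78882535-78882564, minus strand, and its match begins 19 bases from the start site, inside the transcript. The Ripk1 stretch is chr13:34002859-34002888, plus strand, at the downstream of its annotated starts, and its match begins 5 bases before that start.
Eif2ak2: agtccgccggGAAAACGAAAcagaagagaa
Ripk1: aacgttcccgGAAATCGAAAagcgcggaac
These matches describe letters only. Neither gene passed a threshold in the comparison, and no value here bears on the binding of a factor.

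Of the necroptosis genes, Ripk3 was not detected while Ripk1 and Mlkl were. Ripk3 (ENSMUSG00000022221) encodes the kinase that links ZBP1 and RIPK1 to MLKL, and is a protein-coding gene on chromosome 14, 55784995 to 55788865, minus strand (GRCm38). It had 0 counts in all 6 libraries. At these depths a count of 0 allows up to 3 counts, or 0.116 to 0.147 CPM per library, which covers counting error only. No fold change could be given, and Ripk3 could not be tested.

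Zbp1 (ENSMUSG00000027514; chromosome 2, 173206612 to 173218923, minus strand) encodes the sensor of left-handed nucleic acids and is itself a known interferon-stimulated gene. It had 4, 2 and 0 counts in shCtr and 3, 17 and 2 counts in shOSGEP. The highest library was shOSGEP replicate 2, at 0.659 CPM, and the other shOSGEP libraries were at 0.140 and 0.0849 CPM, within the shCtr range of 0 to 0.170 CPM. Outside that library, no count was above 4, against a floor of 3. The sums were 6 counts in shCtr and 22 in shOSGEP, of which that library gave 17. The mean was 0.0894 ± 0.0853 CPM (SD, n = 3) in shCtr and 0.294 ± 0.317 CPM in shOSGEP, and an exact permutation test of these CPM gave p = 0.5 (two-sided). In this design 3 libraries against 3 cannot give a p below 0.1. Zbp1 was too low for the test across genes.

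Mlkl (ENSMUSG00000012519; chromosome 8, 111311797 to 111338177, minus strand) encodes the pseudokinase that forms the membrane lesion. It was at 42.0, 58.8 and 51.9 CPM in the shCtr libraries, against 45.8, 69.4 and 51.5 CPM under shOSGEP. The highest and lowest shOSGEP libraries lay on either side of the shCtr mean of 50.9 ± 8.43 CPM (SD, n = 3). Its Log2FC was 0.13 (SE 0.393), with a 95% interval from -0.78 to 1.03, so changes from 0.584-fold to 2.04-fold were within the error. Per kilobase of exon, Mlkl averaged 23.1 RPKM over the 6 libraries, at the 82.0th percentile of the genes tested, the second highest level of the 9 genes. Mlkl was therefore well detected in the same libraries in which Ripk3 had no count.

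Ripk1 (ENSMUSG00000021408; chromosome 13, 34002363 to 34037147, plus strand) encodes a kinase and scaffold that can direct signalling from death receptors to survival, apoptosis or necroptosis. It was at 38.4, 26.3 and 43.3 CPM in the shCtr libraries, against 37.7, 44.9 and 38.6 CPM under shOSGEP. The groups overlapped, with shCtr replicate 2 the lowest and shOSGEP replicate 2 the highest. The Log2FC was 0.17 (SE 0.396; 95% interval -0.74 to 1.07). Its direction depended on these libraries: without shCtr replicate 2 it was -0.02, and without both libraries of replicate 2 it was -0.10. Exons of Gm17084 on the same strand and Serpinb6a on the opposite strand cover 9.01% of the exon bases of Ripk1, and no source states that strand was kept.

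Mlkl and Ripk1 were also compared within each library, where scaling plays no part. The trend with GC content and transcript length described below does not cancel in such a ratio. In shCtr replicate 2 that trend was -0.003 for Mlkl and -1.50 for Ripk1. The log2 ratio of Mlkl to Ripk1 counts was 0.52 ± 0.56 (SD, n = 3) in shCtr and 0.44 ± 0.18 in shOSGEP, a difference of -0.08 (exact permutation p = 1.0, two-sided). The ratio was highest in shCtr replicate 2, at 1.16, against 0.13 to 0.63 in the other libraries. This ratio replaced the 3 planned ratios with Ripk3, which were void at 0 counts, and was chosen after the values were seen.

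Among the sensors of double-stranded RNA, Eif2ak2 had the largest Log2FC of the 7 genes and the widest error. Eif2ak2 (ENSMUSG00000024079) lies on chromosome 17, 78852564 to 78882573, minus strand. Its counts were 1137, 122 and 681 in shCtr and 1194, 1002 and 827 in shOSGEP, or 48.3, 5.997 and 31.4 CPM and 55.5, 38.8 and 35.1 CPM. This gave 28.6 ± 21.3 CPM (SD, n = 3) for shCtr and 43.1 ± 10.9 CPM for shOSGEP. All 3 shOSGEP libraries were above 2 of the 3 shCtr libraries, and shCtr replicate 1 lay within the shOSGEP range.

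The Log2FC of Eif2ak2 was 0.59 (SE 0.685; 95% interval -0.98 to 2.17), which spans 0.508-fold to 4.49-fold. Within replicate numbers 1, 2 and 3 the log2 ratio was 0.20, 2.70 and 0.16, higher in shOSGEP in 3 of 3 but large only in replicate 2. Without shCtr replicate 2 the Log2FC was 0.11, and without both libraries of replicate 2 it was 0.18. With the replicate number as a block it was 0.96 (SE 0.602), with an adjusted p of 0.741 in edgeR. In no alternative did its adjusted p pass 0.05.

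**Figure D2:**
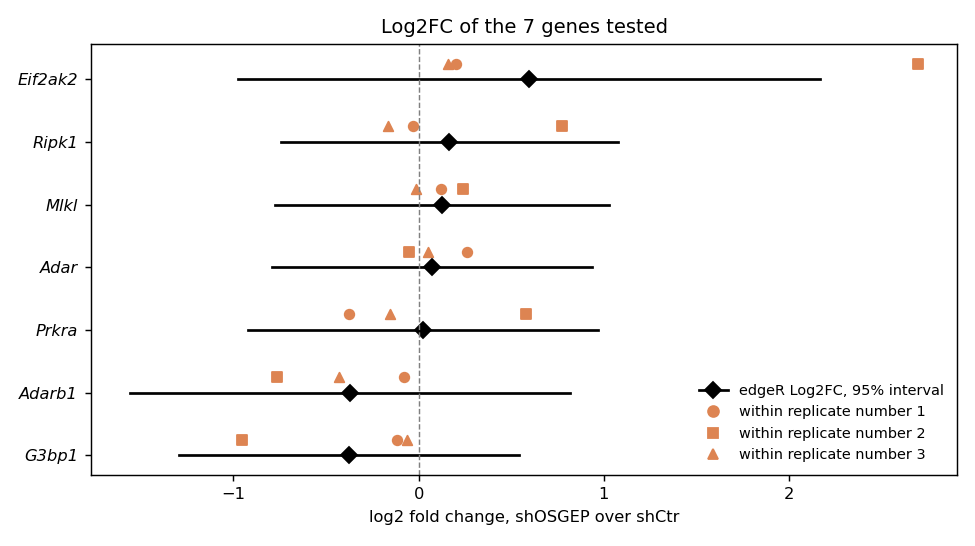
Log2 fold change of shOSGEP over shCtr for the 7 genes tested: black diamonds and bars are the edgeR Log2FC with its 95% interval, and orange symbols are log2 ratios of CPM within replicate numbers 1, 2 and 3. Every interval includes 0, and the 2.70 of Eif2ak2 in replicate 2 lies far from its 0.20 and 0.16 in replicates 1 and 3.

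The low Eif2ak2 value came from shCtr replicate 2, a library in which levels followed base composition across genes. In that library, the 1354 genes tested with 42.5% to 45.0% GC had a median deviation of -1.40 in log2 CPM from the mean of the 6 libraries, and the 1680 genes with 52.5% to 55.0% GC a median of 0.65. The longest coding transcript of Eif2ak2 has 43.9% GC, the lowest of the 7 genes, and 4313 bases. Its deviation there was -2.29. A smooth trend on GC content and transcript length, fitted across all genes, gave -1.46 for a gene of this composition. Base composition also showed in replicate 1 of both groups, where it ran the other way. There the trend for Eif2ak2 was 0.63 in shCtr and 0.67 in shOSGEP. In shCtr replicate 2, Ripk1 and G3bp1 lay further from that trend than Eif2ak2 did. They were above it and Eif2ak2 was below it, while the other genes of the set were closer to it. Ripk1, with 45.1% GC, had a trend of -1.50 there but a deviation of -0.52, and G3bp1 a trend of -0.72 but a deviation of 0.48. Adar had a deviation of 0.17 against a trend of -0.03, and Adarb1 -0.20 against -0.16. Prkra had a deviation of -0.23 against -0.08, and Mlkl 0.16 against -0.003.

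After this trend was taken out, the corrected log2 CPM of Eif2ak2 was 4.97, 4.07 and 4.80 in shCtr and 5.13, 5.38 and 5.05 in shOSGEP. The groups then did not overlap, but neither did they for 12.8% of all genes tested after the same correction. The corrected Log2FC was 0.53 (SE 0.292; 95% interval -0.15 to 1.20) with an adjusted p of 0.805 in edgeR. The same correction set shCtr replicate 2 apart for Ripk1, at 6.22 against 4.69 and 5.08 in shCtr replicates 1 and 3. For G3bp1 it was at 9.83 against 8.32 and 8.46. The part of library composition in the raw difference was not tested.

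**Figure D3:**
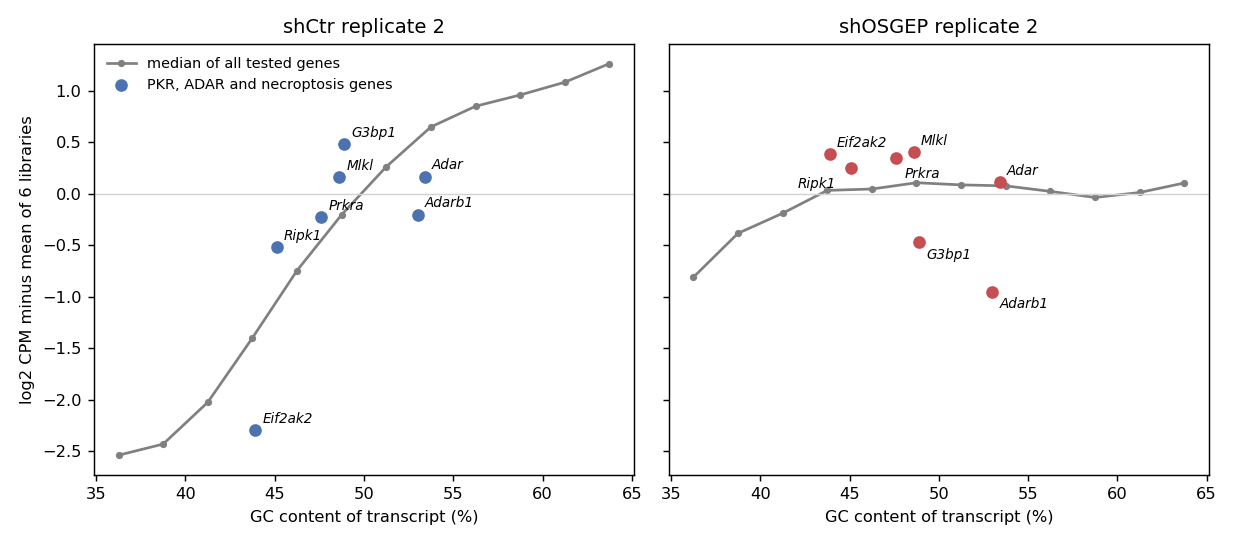
Deviation of log2 CPM from the mean of the 6 libraries against transcript GC content (%) in shCtr replicate 2 (left) and shOSGEP replicate 2 (right), with the grey line for medians of all genes tested in bins of 2.5% and coloured points for the 7 genes. In shCtr replicate 2 the line runs from -2.54 to 1.26 and Eif2ak2 lies below it at -2.29, while in shOSGEP replicate 2 Adarb1 is lowest, at -0.95.

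Prkra (ENSMUSG00000002731; chromosome 2, 76629898 to 76648015, minus strand) encodes PACT, a double-stranded RNA-binding partner of PKR and of Dicer. It was at 26.1, 18.4 and 20.7 CPM in the shCtr libraries, against 20.1, 27.6 and 18.6 CPM under shOSGEP. The group means, 21.7 ± 3.93 and 22.1 ± 4.78 CPM (SD, n = 3), differed by less than their spread. The Log2FC was 0.02 (SE 0.411; 95% interval -0.92 to 0.97). Its sign changed in 8 of 19 alternatives. Within replicate numbers 1, 2 and 3 its log2 ratio was -0.38, 0.58 and -0.15. The log2 ratio of Eif2ak2 to Prkra counts was -0.04 ± 1.37 (SD, n = 3) in shCtr and 0.96 ± 0.49 in shOSGEP, a difference of 1.00 (exact permutation p = 0.4, two-sided; 0.667 after Benjamini-Hochberg adjustment over 4 ratios). This ratio keeps the GC and length trend, which in shCtr replicate 2 was -1.46 for Eif2ak2 and -0.08 for Prkra.

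The editing enzymes were next. Adar (ENSMUSG00000027951; chromosome 3, 89715022 to 89753446, plus strand) encodes ADAR1, which has a constitutive form and a longer, interferon-inducible form that are not told apart in counts per gene. It was at 41.5, 59.1 and 54.5 CPM in the shCtr libraries, against 49.7, 57.0 and 56.4 CPM under shOSGEP. All shOSGEP libraries fell inside the shCtr range. The Log2FC was 0.07 (SE 0.378; 95% interval -0.79 to 0.94), with the smallest SE of the 7 genes, and changes from 0.577-fold to 1.92-fold were within the error. Exons of Chrnb2 on the opposite strand cover 16.8% of the exon bases of Adar.

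Adarb1 (ENSMUSG00000020262; chromosome 10, 77290726 to 77418270, minus strand) encodes ADAR2, known for recoding transcripts in neurons. It was at 8.12, 5.80 and 9.87 CPM in the shCtr libraries, against 7.68, 3.41 and 7.34 CPM under shOSGEP. It was lower in shOSGEP within 3 of 3 replicate numbers, with log2 ratios of -0.08, -0.77 and -0.43, but the groups overlapped. The Log2FC was -0.37 (SE 0.518; 95% interval -1.56 to 0.82), and it was -0.07 without shOSGEP replicate 2. The log2 ratio of Adar to Adarb1 counts was 2.72 ± 0.54 (SD, n = 3) in shCtr and 3.23 ± 0.73 in shOSGEP, a difference of 0.51 (exact permutation p = 0.5, two-sided; 0.667 adjusted over 4 ratios). For Eif2ak2 to Adar the difference was 0.93, with the same p values. That ratio was at -3.30 in shCtr replicate 2 and from -0.80 to 0.22 in the other 5 libraries, and without shCtr replicate 2 its difference was -0.07. In shCtr replicate 2 the GC and length trend was -1.46 for Eif2ak2 and -0.03 for Adar.

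G3bp1 (ENSMUSG00000018583; chromosome 11, 55469685 to 55504838, plus strand) encodes the RNA-binding protein on which stress granules assemble, and which the study used as their marker. The study stained the protein in cells, and reported that depleting HRI, another eIF2α kinase, removed the granules. An mRNA level does not measure where the protein lies. G3bp1 mRNA was at 374, 553 and 445 CPM in the shCtr libraries, against 346, 286 and 426 CPM under shOSGEP. The highest shOSGEP library lay above the lowest shCtr library. Group means of 458 ± 90.01 and 352 ± 70.4 CPM (SD, n = 3) gave a Log2FC of -0.38 (SE 0.401; 95% interval -1.30 to 0.54). The log2 ratio was -0.12, -0.95 and -0.06 within replicate numbers, lower in shOSGEP in 3 of 3 but mostly in replicate 2. Without both libraries of replicate 2 the Log2FC was -0.08. An increase above 1.46-fold and a decrease below 0.408-fold were outside the interval. Of the 31-base words of G3bp1 transcripts, 12.7% occur in other genes, among them Gm5913 and Gm9509, so part of its counts is uncertain. The same limit holds for Adar, Ripk1 and Eif2ak2, where the share was 15.4%, 8.51% and 8.16%. It was 0.92% for Adarb1 and 0% for Mlkl and Prkra.

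Levels were compared between genes per kilobase of annotated exon. G3bp1 was highest, at 57.3 RPKM (40.4 to 78.3 over 6 libraries), followed by Mlkl, and each lay above the next gene in 6 of 6 libraries. Prkra was at 10.8 RPKM, Eif2ak2 at 7.01 RPKM and Adar at 6.53 RPKM. Prkra was above Eif2ak2 in 5 of 6 libraries, and its lowest library, at 9.09 RPKM, was above the highest of Adar, at 7.28 RPKM. Eif2ak2 was above Adar in 3 of 6 libraries, so the levels of Eif2ak2 and Adar did not differ beyond their spread. Ripk1 (4.58 RPKM) and Adarb1 (0.624 RPKM) followed, each below its neighbour in 6 of 6 libraries. Zbp1 reached at most 0.187 RPKM and Ripk3 was at 0. In bulk RNA, fewer expressing cells and less RNA per cell cannot be told apart.

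Partner genes of the circuit were examined in 5 lists drawn up by function. No gene of any list had an adjusted p under 0.05 in edgeR. Of 20 PKR regulators and double-stranded RNA-binding proteins, 17 were tested, and 1 passed the study threshold higher, against 1.59% of all genes tested, and 0 lower, with a median Log2FC of 0.00 against -0.03 for all genes tested. That gene was Ppp1r15a, which encodes GADD34, the stress-induced subunit that directs a phosphatase to eIF2α and so opposes PKR and the other eIF2α kinases. It was at 16.2, 31.9 and 17.2 CPM in the shCtr libraries, against 40.9, 167 and 40.6 CPM under shOSGEP, without overlap. The Log2FC was 1.93 (SE 0.671; adjusted p 1.00). Ilf2 and Drosha followed with Log2FC of -0.65 and -0.54, neither past the threshold. Ilf2 was lower without overlap, with 131 to 224 CPM in shCtr and 99.2 to 118 CPM in shOSGEP. Without shCtr replicate 2 its Log2FC was -0.39, and that of Drosha was -0.34 without shOSGEP replicate 2. Adarb2, Adad1 and Adad2, relatives of the ADAR enzymes, had no count in any library.

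Of 30 genes of the RIPK1 complex and death receptor signalling, 27 were tested, with 1 past the study threshold higher, 0 lower and a median Log2FC of -0.16. Tnfaip3, which encodes the ubiquitin-editing protein A20, a brake on NF-κB and on necroptosis, was that gene. It was at 0.977, 0.885 and 1.01 CPM in the shCtr libraries, against 1.63, 6.20 and 1.66 CPM under shOSGEP, without overlap. The Log2FC was 1.72 (SE 0.695; adjusted p 1.00). With the replicate block it did not pass (Log2FC 1.41, unadjusted p 0.0607 in edgeR), but with GC and length offsets and the block it did (1.36, unadjusted p 0.047 in edgeR). In limma-voom with sample quality weights it did not pass without the block (0.90, unadjusted p 0.0549). With the block it passed there (0.76, unadjusted p 0.00954), as did 1442 of all genes tested. Pgam5 and Rbck1 had Log2FC of -0.83 and -0.95, neither past the threshold. Pgam5 was lower without overlap, with 34.4 to 63.4 CPM in shCtr and 20.2 to 31.9 CPM in shOSGEP, and its Log2FC was -0.51 without shCtr replicate 2. Rbck1 was at 552 CPM in shCtr replicate 2 and at 93.1 to 172 CPM in the other libraries, and without that library its Log2FC was 0.13.

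Of 15 executioners of apoptosis and pyroptosis, 11 were tested, with 1 past the study threshold higher, 0 lower and a median of -0.23. Casp4, which encodes the caspase of the noncanonical inflammasome, was at 1.79, 0.0492 and 0.553 CPM in the shCtr libraries, against 2.93, 11.7 and 1.53 CPM under shOSGEP, with overlap. Its counts in shCtr were 42, 1 and 12, so shCtr replicate 2 was below the floor of 3. The Log2FC was 2.74 (SE 1.17), and with the replicate block it did not pass (2.49, unadjusted p 0.113 in edgeR). Nor did it with GC and length offsets and the block (2.13, unadjusted p 0.0797 in edgeR). In limma-voom with sample quality weights and the block it passed (0.945, unadjusted p 0.000544). Gsdme, which encodes a pore-forming gasdermin cut by caspase-3, had no overlap between groups, with 11.6 to 14.4 CPM in shCtr and 16.98 to 43.9 CPM in shOSGEP. Its Log2FC of 1.01 (SE 0.5002) did not pass the threshold, nor did that of Pycard, at -0.87. Gsdme was at 0.47 without shOSGEP replicate 2, and Pycard at 0.04 without shCtr replicate 2. All 29 stress granule genes were tested, with 0 past the threshold in either direction and a median of -0.04. The smallest unadjusted p values of that list belonged to Eif3b, Ubap2l and Usp10, with Log2FC of -0.98, -0.61 and -0.51. Without shCtr replicate 2, Eif3b was at -0.24 and Usp10 at -0.20, and without shOSGEP replicate 2, Ubap2l was at -0.29 and Usp10 at -0.30.

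The last list was a reference list of 23 other interferon-stimulated genes. Like the other lists, it was chosen with earlier results of these data known. Of its 20 genes tested, 4 passed the study threshold higher, against 1.59% of all genes tested, and 0 lower. A Log2FC above 0 was found for 19 of the 20, against 47.3% of all genes tested. The median was 1.21. It was 0.77 without replicate 2, and the median log2 ratio within replicate numbers was 0.79, 1.99 and 0.74. Ifit1, Oasl2 and Ifit3 had Log2FC of 1.88, 2.93 and 1.20, each without overlap between groups. Of the interferon-inducible genes among the 9, Eif2ak2 was at 0.59, Adar at 0.07 and Mlkl at 0.13. Zbp1, tested only when no filter on low counts was set, was at 1.66 (SE 1.28; 95% interval -0.98 to 4.30; adjusted p 0.959 in edgeR), from the 6 and 22 counts given above. Whether these genes differ from the reference list was not tested. All 7 partner genes past the study threshold, Rtp4 included, lost it without shOSGEP replicate 2, where the Log2FC was 0.93 for Ppp1r15a, 0.79 for Tnfaip3, 1.47 for Casp4, 1.27 for Ifit1, 1.04 for Oasl2, 0.82 for Ifit3 and 0.60 for Rtp4. Leaving out a single control library also ended the call of Tnfaip3 and Rtp4 (any of the 3), Ppp1r15a and Ifit3 (replicate 1 or 3), Casp4 (replicate 2 or 3) and Oasl2 (replicate 3), at Log2FC of 1.66 to 1.76, 1.80 to 2.31, 1.76 and 1.79, 1.26 and 1.18, 2.19 and 2.54, and 2.53. Ifit3 also lost it without shOSGEP replicate 1, at 1.31. Without replicate 2 altogether, Ppp1r15a (Log2FC 1.29), Ifit1 (0.92) and Ifit3 (0.77) passed it.

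**Figure D4:**
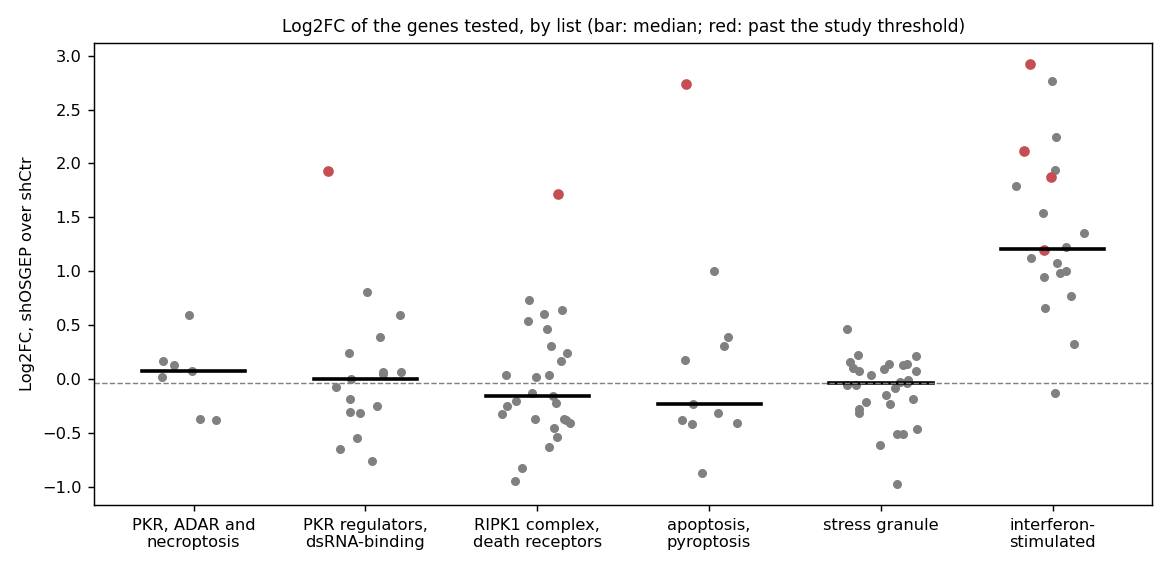
Log2FC of shOSGEP over shCtr for each gene tested (points) in 6 lists, with black bars for list medians, red points for genes past the study threshold and a dashed line at the median of all genes tested, -0.03. The 7 PKR, ADAR and necroptosis genes lie between -0.38 and 0.59 around a median of 0.07, and the interferon-stimulated genes have a median of 1.21.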

How the data were processed

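PolyA RNA of 6 libraries was sequenced in paired reads. The authors aligned reads to GRCm38 with STAR 2.6.1d and deposited estimated counts per gene from Salmon 1.4.0, unnormalized and written as whole numbers. Library names in the labels matched the columns. Genes were kept by filterByExpr (minimum count 10, minimum total 15), scaled by TMM and tested two-sided by quasi-likelihood in edgeR 4.0.16 under R 4.3.3, with Benjamini-Hochberg adjustment over 12669 genes. SE is Log2FC over the root of F, and 95% intervals use the t distribution. The edgeR, DESeq2 and limma-voom fits without a block were tested on simulated counts with the same dispersion for every gene and no GC or length trend. The other alternatives were not tested in this way. Positions, exon lengths and GC came from GENCODE M21 (99.5% of genes matched); RPKM is CPM per kilobase of exon. Ratios between genes used counts plus 0.5 with an exact permutation test (scipy 1.17.1).

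The genes and lists were chosen with earlier results of these data known. Named genes were the 9, Osgep, up to 3 genes per partner list by unadjusted p, and the 3 genes most like any of the 9 whose groups do not overlap, of which there were none. Rtp4 was named after its values were seen. Across genes, the deviations of libraries that share a number correlated at 0.811, 0.557 and 0.196. By a limit of 0.1, numbers were taken as pairs in the replicate block and in the log2 ratios within numbers. Libraries of different numbers reached 0.491, above the 0.196 of replicate 3. The main fit, which gave the Log2FC, SE and p-values unless stated otherwise, had no block. Alternatives were DESeq2 1.42.0, RLE or upper-quartile scaling, limma-voom (limma 3.58.1) weighted by sample quality, 2 filters on counts, a replicate block, GC and length offsets (natural splines with 5 degrees of freedom), and leaving out libraries.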

Additional observations from a re-analysis of the deposited data

How the results depend on the processing

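In 19 alternatives, no gene of the 7 passed an adjusted p of 0.05 (0 called in each) or the study threshold, with or without the replicate block, and the replicate block changed no call among the 7. Genes without overlap between groups numbered 0 to 2 of 7 when libraries were left out, where 9.2% to 23.6% of all genes tested did not overlap, and 1 (Eif2ak2) after GC and length offsets. Eif2ak2, Adarb1 and G3bp1 kept their direction in all 19, with Log2FC from 0.11 to 1.21, -0.56 to -0.07 and -0.63 to -0.08. Other directions turned, and the cause was not tested. Prkra was at -0.10 with limma-voom with sample quality weights, -0.12 with GC and length offsets, -0.11 with these and the block, and -0.30 with limma-voom, weights and block. In the same order Ripk1 was at -0.11, -0.22, -0.18 and -0.055. With libraries left out, the Log2FC ran from -0.27 to 0.24 for Prkra, -0.10 to 0.35 for Ripk1, -0.061 to 0.18 for Adar and -0.047 to 0.25 for Mlkl. The difference of the log2 ratio then ran from -0.071 to 1.69 for Eif2ak2 to Adar and from -0.27 to 0.25 for Mlkl to Ripk1. Over all genes tested, adjusted calls numbered 0 in edgeR, 14 in DESeq2, 3 in limma-voom with weights and 1403 with weights and block, and the study threshold took 256 genes, 67 without shOSGEP replicate 2, 692 with the offsets (454 of them higher, against 202 of 256), 869 with offsets and block and 1442 with limma-voom, weights and block. Upper-quartile scaling moved the median Log2FC of all genes from -0.03 to 0.07. The GC and length trend held 17.7% to 63.7% of the variance of a library's deviations, most in shCtr replicate 2. Depth limits Zbp1 and Ripk3.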

Other observations

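Other parts of the RIPK1 complex were well expressed, a choice of genes made after their values were seen. Casp8, which encodes the protease that cleaves RIPK1 and holds necroptosis back, was at 62.3, 34.9 and 50.3 CPM in the shCtr libraries, against 51.4, 53.6 and 46.7 CPM under shOSGEP. Fadd, its adaptor, was at 27.96, 86.4 and 46.1 CPM and at 27.1, 40.8 and 49.4 CPM. Cflar, which encodes the caspase-8 regulator cFLIP, was at 107, 25.1 and 79.6 CPM and at 104, 38.3 and 74.7 CPM. The groups overlapped for all 3 genes. Fas, a death receptor, was too low to be tested, with 6, 2 and 1 counts in shCtr and 23, 85 and 6 counts in shOSGEP.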
